A study of Penicillium oxalicum with 114 samples.

Results

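Penicillium oxalicum is a filamentous fungus that secretes cellulases and xylanases, the enzymes that open up cellulose and xylan in plant cell walls. The comparison described here set a mutant without the gene POX07277 (dPOX07277) against the strain without POXKu70 (Ku70), both grown for 24 h on 2% Avicel with arachidonic acid oil (ARA). It held 6 of the 114 RNA-seq libraries of the series, 3 of each strain, picked by strain, medium and addition alone. The series looks for genes that move with cellulase and xylanase transcription.

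Avicel is microcrystalline cellulose, an inducing carbon source, and the hyphae had been moved onto it from glucose medium. Arachidonic acid is a long polyunsaturated fatty acid, and the amount of oil is not in the labels. Ku70 proteins serve in non-homologous end joining, and fungi without them are widely used as recipients for gene deletion, and Ku70 is used here as the control. The labels of these libraries use the words control strain for both Ku70 and dPOX07277. The labels do not say whether dPOX07277 was made in the Ku70 strain or how many clones were used, and the growth protocol of dPOX07277 names spores of the Ku70 mutant. All 9 libraries labelled dPOX07277 in the series had a fatty acid added, so the strains were not compared here without one. The libraries of both strains on linolenic acid and on oleic acid, 3 of each strain and addition, grown in the same way, entered the same fit of 18 libraries and give the points of comparison below.

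In filamentous fungi, secretion of plant cell wall enzymes is switched on by the substrate and held back by glucose, and transcription factors carry both signals. Genes of one secondary metabolite pathway often lie side by side in fungal genomes and are transcribed together. The deposited tables carry locus numbers without products and none of the 9834 IDs matched the reference gene table (0 matches), so loci are given by ID. No product is named beyond the lists of loci taken as cellulases, xylanases and amylases. These lists come from the study group's publications and from earlier work on the whole series, so they were chosen with earlier results of these data known.

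The 6 libraries totalled 13277742 to 14510402 expected counts, which are estimated read numbers per gene, and levels are given as CPM, each count scaled by its library's total. The labels name replicates only by a number or letter, so they may be technical replicates, and a p-value then covers no more than the spread among the libraries. The dPOX07277 libraries F, S and T on ARA correlated with each other at 0.983 to 0.994 over log2(CPM + 1). The Ku70 libraries 38, 39 and 40 correlated at 0.968 to 0.990, and library 38 stood apart: it correlated at 0.968 and 0.975 with libraries 40 and 39 and at 0.971 to 0.981 with the Ku70 libraries of the other additions. Results that turn on library 38 are given with and without it. In the other additions, the dPOX07277 libraries on oleic acid spread most. Libraries F and S correlated at 0.838, S and T at 0.921, and F and T at 0.964. Library F was furthest from the dPOX07277 libraries on ARA, at 0.805 to 0.850, and S was nearest, at 0.970 to 0.980.

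The deletion was plain in the counts. POX07277 was at 32.04, 30.9 and 32.9 CPM in the 3 Ku70 libraries and at 0 in all 3 dPOX07277 libraries, at least 141-fold lower against a floor of 3 counts per library. Of the 2 loci on either side of it in the numbering, POX07275, POX07276 and POX07278 did not pass the test, with log2 fold changes of 0.52, 0.20 and 0.14. POX07279 rose, from 4.90, 3.45 and 4.64 CPM to 14.9, 12.5 and 15.5 CPM (log2 fold change 1.73, SE 0.19, edgeR quasi-likelihood test with Benjamini-Hochberg adjusted p = 6.6e-06). It was also higher on linolenic acid (2.00) and oleic acid (1.68).

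Loss of POX07277 went with a broad change in transcript levels on ARA, more often upward than downward. Of 8484 genes tested, those averaging 1 CPM or more over the 18 libraries, 692 were higher in dPOX07277 (8.16%) and 531 lower (6.26%), 1223 in all (14.4%), by an adjusted p under 0.05 and a change of at least 2-fold. Genes called higher had a median change of 3.92-fold and a median level of 7.95 CPM in Ku70, which became 48.5 CPM in the mutant. Genes called lower had a median change of 3.05-fold. Large changes were mostly gains: 152 of the genes called higher and 26 of those called lower changed at least 16-fold.

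Together the 692 genes took 2.52%, 2.82% and 2.57% of all counts in Ku70 and 15.1%, 15.3% and 14.7% in dPOX07277. The 531 genes took 13.7%, 18.3% and 20.2% in Ku70, lowest in library 38, and 4.33%, 4.26% and 4.36% in the mutant. These shares describe genes chosen by the same test and are not a further test. Among the 118 genes that averaged over 1000 CPM across the 6 libraries, 12 rose and 21 fell, 10.2% and 17.8%. Losses did not follow abundance in order: 7.07% of the 1825 genes between 100 and 1000 CPM fell, 4.23% of the 5058 between 10 and 100 CPM and 11.3% of the 1483 under 10 CPM. Without library 38 the counts were 741 higher and 490 lower, and without the oleic acid library F they were 711 and 561. No gene called on ARA was called in the opposite direction by DESeq2, limma or any fit that left out 1 of the 6 libraries.

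**Figure D1:**
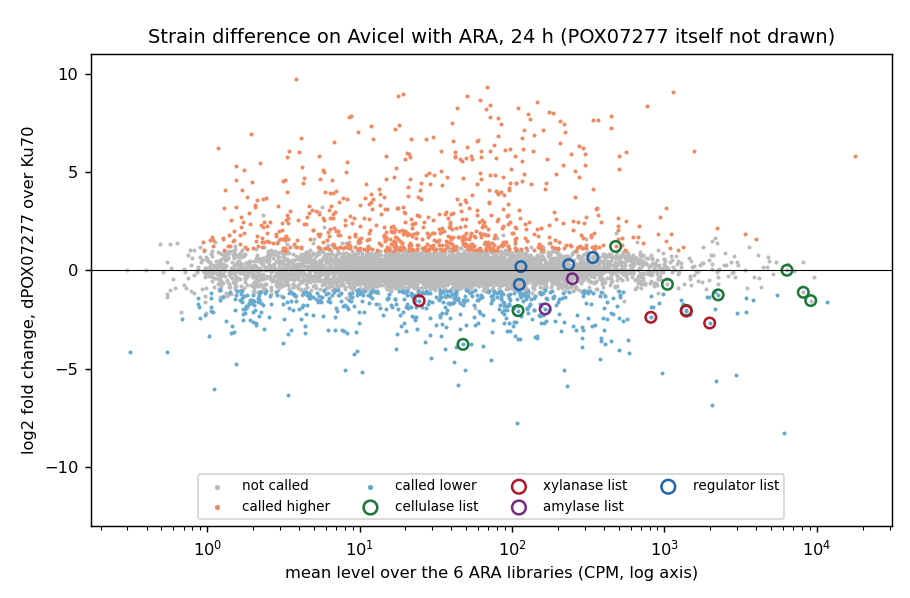
Log2 fold change of dPOX07277 over Ku70 on Avicel with ARA for each tested gene except POX07277 (y axis) against its mean CPM over the 6 libraries (x axis, log scale), with genes called higher or lower in colour and list members ringed. Changes of at least 16-fold were called for 152 genes higher and 26 lower, the latter with POX07277, which is not drawn. The xylanase list lies below 0 throughout.

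The largest gain of all in CPM was POX01764, a locus with a coding length of 492 bases, which became the most abundant transcript of the mutant. It stood at 705, 549 and 641 CPM in Ku70 and at 33838, 38099 and 33473 CPM in dPOX07277 (log2 fold change 5.81, SE 0.37, edgeR with Benjamini-Hochberg adjusted p = 3.01e-08), between 3.35% and 3.81% of all counts. The groups were far apart, and the change was of like size on linolenic acid (5.13) and oleic acid (5.16).

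The next gains were in a neighbouring pair, POX06307 and POX06308, and in POX01651 and POX00089. POX06307 had 1101, 3230 and 1567 CPM in Ku70 and 5846, 5922 and 6106 CPM in the mutant. POX06308 had 668, 2282 and 1528 CPM in Ku70 and 5156, 5476 and 5150 CPM in the mutant. Both were tight in dPOX07277 and spread widely in Ku70, where library 38 was lowest. The call of POX06307 (log2 fold change 1.60, SE 0.47) was lost without library 38 or 40, with edgeR Benjamini-Hochberg adjusted p = 0.0732 and 0.0708. POX01651, another short locus at 477 bases, went from 32.04, 34.6 and 71.0 CPM to 3124, 2774 and 3276 CPM (log2 fold change 6.08, SE 0.64). For POX00089 the log2 fold change was 2.15 (SE 0.47), with Ku70 between 308 and 1297 CPM and the mutant between 3379 and 3873 CPM.

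On the losing side, the largest drops in CPM among called genes were at POX09358, POX08030, POX06051, POX01317 and POX01937. POX06051, the top transcript of Ku70 library 39, went from 14693, 17203 and 21287 CPM to 5930, 5558 and 5640 CPM (log2 fold change -1.62, SE 0.29). POX08030 went from 5562, 6534 and 5093 CPM to 141, 167 and 117 CPM (log2 fold change -5.33, SE 0.26). Neither pair of groups overlapped, and the 40.2-fold drop of POX08030 was accompanied by drops of 43.96-fold on linolenic acid and 57.7-fold on oleic acid. POX01937 had a log2 fold change of -2.14 (SE 0.36) and POX01317 of -1.27 (SE 0.37). The call of POX01317 was lost without Ku70 library 39 or mutant library F or S, with edgeR Benjamini-Hochberg adjusted p between 0.0511 and 0.0684.

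**Figure D2:**
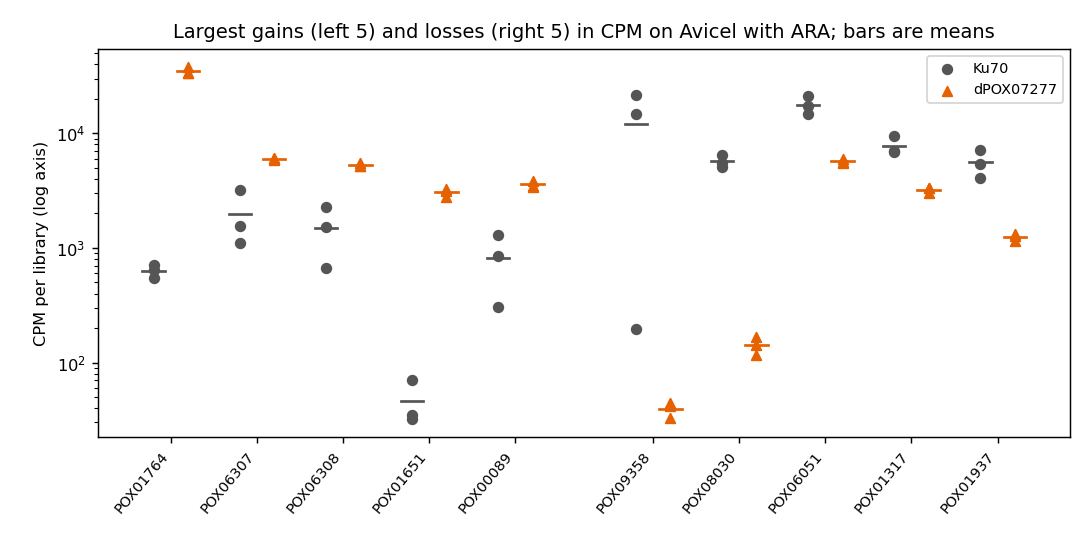
CPM in each library (log axis) for the 5 loci with the largest gain and the 5 with the largest loss in mean CPM among called genes on ARA, Ku70 as circles and dPOX07277 as triangles, with bars at the group means. POX01764 stands at 33473 to 38099 CPM in the mutant, and Ku70 library 38 is the low circle of POX09358 at 197 CPM.

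Among called loci with a mean of at least 10 CPM in the mutant and no overlap between strains, gains were ranked by fold change. The 10 strongest had Ku70 means of 0.069 to 4.75 CPM, and a ranking by fold change favours such low levels. POX08108 had 0.207, 0.0689 and 0.346 CPM in Ku70 and 138, 160 and 115 CPM in dPOX07277 (log2 fold change 9.33, SE 0.97). POX06513 went from 4.49, 5.10 and 2.98 CPM to 1987, 2056 and 2731 CPM (log2 fold change 9.08, SE 0.84). These 2 loci and the 8 that follow, POX08735, POX08107, POX08684, POX05864, POX05858, POX04766, POX08694 and POX04562, had log2 fold changes of 8.26 to 9.33 and were all called higher on linolenic and oleic acid too. POX07391 had no counts in any of the Ku70 libraries and 6.72, 7.80 and 8.59 CPM in the mutant, at least 37.1-fold higher against the floor of 3 counts per library.

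Losses were ranked by fold change under like limits, at least 10 CPM in Ku70 and no overlap, with POX07277 set aside. Among them POX08890 and POX05360 were even across libraries. POX08890 fell from 237, 264 and 140 CPM to 1.195, 0.976 and 0.753 CPM (log2 fold change -7.76, SE 0.46). POX05360, a long locus of 5349 coding bases, fell from 4714, 4599 and 3423 CPM to 91.2, 96.0 and 74.9 CPM (log2 fold change -5.60, SE 0.28). Both fell on linolenic acid (-8.48 and -6.18) and oleic acid (-6.75 and -6.54) as well. POX03927 fell from 82.7, 102 and 101 CPM to 2.76, 3.23 and 2.33 CPM (log2 fold change -5.09, SE 0.47). The other 5 of the 10 largest losses, together with POX09358, lay near each other in the numbering and are described below with their neighbours.

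Members of the cellulase list moved in both directions on ARA, more of them down than up. Of the 9 members, all tested, 4 fell, 1 rose and 4 did not pass the test, beside 6.26% lower and 8.16% higher over all genes, and the median log2 fold change was -1.25 against -0.0018 over all genes tested. The list's summed level was 25045, 44299 and 45811 CPM in Ku70 and 17997, 18893 and 21516 CPM in dPOX07277. The groups did not overlap, but library 38 was closer to the mutant than to the other Ku70 libraries. Summed over the list, the mean was 38385 ± 11578 CPM in Ku70 and 19468 ± 1829 CPM in the mutant (SD, n = 3 each).

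POX07535 fell furthest, from 21.5, 163 and 82.3 CPM to 6.42, 5.18 and 7.98 CPM (log2 fold change -3.76, SE 0.62, edgeR with Benjamini-Hochberg adjusted p = 0.000281). POX03641 fell from 1457, 2237 and 3018 CPM to 524, 591 and 508 CPM (log2 fold change -2.03, SE 0.43). POX02740 fell from 139, 181 and 209 CPM to 40.6, 31.7 and 54.6 CPM (log2 fold change -2.05, SE 0.47). In all 3, each mutant library was below every Ku70 library, as for 52.7% of all tested genes in one direction or the other. POX05571 fell with a log2 fold change of -1.25 (SE 0.41), a call lost without Ku70 library 39 or 40 or mutant library F or S.

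POX06835 was the member that rose, from 306, 269 and 293 CPM to 690, 689 and 621 CPM (log2 fold change 1.21, SE 0.30, edgeR with Benjamini-Hochberg adjusted p = 0.00652). It rose on linolenic acid (1.95) and oleic acid (1.70) as well. The most abundant cellulase loci did not pass the test. POX04786 had 8511, 16673 and 15527 CPM in Ku70 and 4302, 4210 and 5410 CPM in the mutant, with a log2 fold change of -1.54 (edgeR with Benjamini-Hochberg adjusted p = 0.0506). Without library 38 it was called lower (-1.78, adjusted p = 0.0419), as it was with DESeq2 and in the 6 ARA libraries alone. POX01166 had 5953, 13189 and 14361 CPM in Ku70 and 4832, 5074 and 5429 CPM in the mutant (log2 fold change -1.11, adjusted p = 0.107), and it was called lower in the 6 ARA libraries alone.

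POX05587 overlapped between the strains and did not pass the test, at 5549, 6580 and 7009 CPM in Ku70 and 5693, 6491 and 6854 CPM in the mutant (log2 fold change 0.00, SE 0.52). It was the most abundant of the 9 loci in the mutant by mean CPM, while POX04786 was in Ku70. On the authors' per-length scale (FPKM) the same loci stood at 3868 for POX05587 against 4077 for POX01166 in the mutant, and at 9644 for POX04786 in Ku70. POX05570 had a log2 fold change of -0.71 (SE 0.32) and did not pass the test.

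All 4 members of the xylanase list fell on ARA, beside 6.26% of all genes, with a median log2 fold change of -2.23 against -0.0018 over all genes. POX08484, the most abundant, went from 1315, 4050 and 4917 CPM to 485, 481 and 625 CPM (log2 fold change -2.68, SE 0.70, edgeR with Benjamini-Hochberg adjusted p = 0.00916). POX06783 went from 572, 1832 and 1701 CPM to 254, 240 and 286 CPM (log2 fold change -2.38, SE 0.58). Library 38 again held the lowest Ku70 value of each, still above the mutant. POX00063 went from 1069, 2419 and 3262 CPM to 374, 332 and 881 CPM (log2 fold change -2.07, SE 0.71), and its call was lost without Ku70 library 39 or 40 or mutant library F or S. POX08990, far less abundant, went from 26.03, 41.5 and 42.5 CPM to 13.4, 12.3 and 11.8 CPM (log2 fold change -1.54, SE 0.28). Without library 38, 5 members of the cellulase list and all 4 of the xylanase list were called lower.

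Of the amylase list, POX09352 fell from 411, 263 and 114 CPM to 77.5, 59.5 and 65.1 CPM (log2 fold change -1.96, SE 0.59, edgeR with Benjamini-Hochberg adjusted p = 0.0211). That call was lost without library 38, where it was highest (-1.48, adjusted p = 0.0953), and without each of the mutant libraries, with adjusted p between 0.0522 and 0.0716. POX02412 overlapped between strains, at 228 to 377 CPM in Ku70 and 192 to 235 CPM in the mutant, and did not pass the test (-0.43, SE 0.35).

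None of the regulator loci was called (0 of 4), beside 14.4% of all genes, so that so short a list shows nothing particular to it. POX01167, POX02968 and POX04420 are deleted or overexpressed in other strains of the series, and POX01960 is the locus that earlier work on these libraries took as ClrB, a transcription factor known to activate cellulase genes. POX01960 stood at 193, 314 and 288 CPM in Ku70 and at 365, 406 and 467 CPM in the mutant, higher in each mutant library but under the minimum change (log2 fold change 0.65, SE 0.22, edgeR with Benjamini-Hochberg adjusted p = 0.0351). POX04420 had 185, 108 and 124 CPM in Ku70 and 95.0, 67.8 and 89.3 CPM in the mutant (-0.72, adjusted p = 0.0574). The log2 fold changes of POX01167 and POX02968 were 0.29 and 0.19. With no minimum fold, 1 of the 4 (POX01960) passed.

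**Figure D3:**
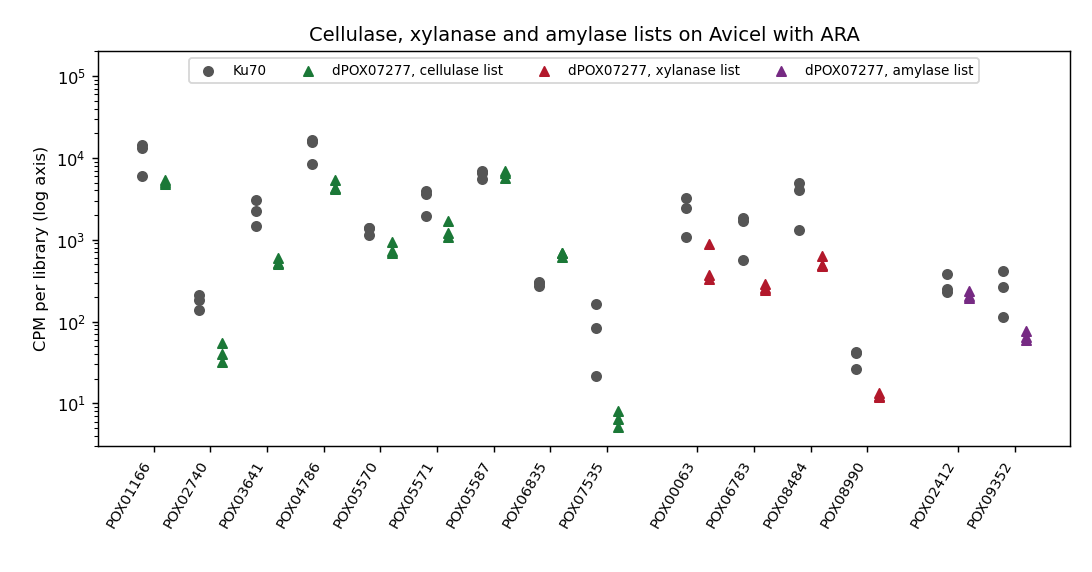
CPM in each ARA library (log axis) for the members of the cellulase, xylanase and amylase lists, Ku70 as circles and dPOX07277 as coloured triangles. All 4 xylanase loci lie lower in the mutant, POX06835 lies higher, POX05587 overlaps, and the lowest circle of most cellulase and xylanase loci is library 38.

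Some of the called loci followed each other in the numbering, which is not taken here as a map position. Runs of at least 3 consecutive numbers called in the same direction held 183 of the 1223 called genes, in 44 runs: 117 of the genes called higher, in 26 runs, and 66 of those called lower, in 18 runs. Of the 152 genes at least 16-fold higher, 71 lay in such runs (46.7%), and of the 26 at least 16-fold lower, 11 did (42.3%). The share over all called genes was 14.96%. What share the call rates alone would give was not computed. In 13 of the 26 higher runs, every member was also called higher on both linolenic and oleic acid. The same held for 3 of the 18 lower runs, and in 2 of the 18 no member was called lower on either. Over all genes tested, 9.34% were called higher and 5.42% lower on linolenic acid, and 22.4% and 10.5% on oleic acid.

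The longest run by far was POX05850 to POX05871, 22 loci in a row that all rose. Their log2 fold changes ranged from 2.13 to 8.66, with a median of 6.86. Summed, they stood at 104, 95.9 and 122 CPM in Ku70 and at 4372, 4567 and 4796 CPM in dPOX07277, a 42.7-fold difference in means. Within the run, POX05864 went from 0.207, 0.207 and 0.485 CPM to 123, 120 and 127 CPM, and POX05858 from 0.760, 0.482 and 1.11 CPM to 279, 292 and 298 CPM. The smallest fold changes were at POX05867 (2.13), POX05869 (2.47) and POX05851 (2.77). These also had the highest Ku70 means, at 13.0, 29.9 and 23.9 CPM, a link partly built in, since fold changes are taken over Ku70. In the mutant POX05869 and POX05851 averaged 164 and 161 CPM, within the 43.3 to 442 CPM of the run. Just before the run, POX05849 and POX05848 averaged under 1 CPM and were not tested. On the other side POX05872 and POX05873 did not pass the test, with log2 fold changes of -0.44 and 0.51, and POX05874 rose from a mean of 23.5 CPM to 164 CPM (log2 fold change 2.81, SE 0.21). All 22 loci were called higher on linolenic acid and on oleic acid too, and the difference between additions was called for none (0) against linolenic acid and for 1, POX05869, against oleic acid.

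A further stretch of gains lay at POX09467 to POX09474. Its 8 loci had log2 fold changes of 4.84 to 7.69 and summed to 13.3, 13.0 and 25.6 CPM in Ku70 and to 1938, 2001 and 2122 CPM in the mutant, 117-fold apart in means. Of the loci just before it, POX09464 (6.67) and POX09465 (7.76) rose as well, while POX09466 had no counts. All 8 loci were called higher on both other additions. The run POX09684 to POX09691, of the same length, was more uneven, with log2 fold changes of 1.37 to 7.04. Its sum was 106, 69.3 and 70.6 CPM in Ku70 and 605, 668 and 698 CPM in the mutant. On linolenic acid 5 of its 8 members were called higher and on oleic acid 7 were. The difference between additions was called for 3 members against oleic acid and 0 against linolenic acid, beside 17.9% and 1.16% of all genes tested. POX07391, the locus without counts in Ku70, belonged to the higher run POX07388 to POX07392, whose 5 loci summed to 5.18, 4.41 and 5.54 CPM in Ku70 and to 149, 143 and 175 CPM in the mutant.

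The longest run of losses was POX09354 to POX09361, and here Ku70 library 38 stood apart most. The 8 loci summed to 2170, 19178 and 26708 CPM in Ku70 and to 226, 247 and 263 CPM in dPOX07277. Every Ku70 value lay above the mutant, but library 38 was far below the other Ku70 libraries. POX09358 had 197, 14855 and 21429 CPM in Ku70 and 32.9, 44.3 and 41.3 CPM in the mutant (log2 fold change -8.25, SE 1.70, edgeR with Benjamini-Hochberg adjusted p = 0.0018). In contrast, POX09354 was steadier and had the smallest error of the run (log2 fold change -3.48, SE 0.20).

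The stretch went on past POX09362, which did not pass the test, to POX09363, POX09364 and POX09365. The call of POX09363 was lost without mutant library F or T, with edgeR Benjamini-Hochberg adjusted p = 0.0591 and 0.0553. POX09365 had 297, 4518 and 7296 CPM in Ku70 and 34.8, 30.8 and 39.8 CPM in the mutant (log2 fold change -6.82, SE 1.33). On the other side lay POX09352 of the amylase list. In a window of 19 loci around the run, chosen after the values were seen, 12 of 16 tested loci fell and none rose (0). Since the window was drawn around loci called lower, most of these falls were fixed by the choice. Over all genes tested 6.26% fell and 8.16% rose. In the other Ku70 groups the 8 loci summed to 2285, 1940 and 1471 CPM on linolenic acid and to 7656, 17312 and 2324 CPM on oleic acid. Ku70 ARA library 38 lay within the linolenic acid range, and no test was made between Ku70 groups. On linolenic acid 4 of the 8 were called lower in the mutant, and on oleic acid 7 were, beside 5.42% and 10.5% of all genes tested.

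Shorter runs of losses included POX03927 to POX03931, whose 5 loci summed to 1928, 1628 and 1704 CPM in Ku70 and to 154, 169 and 141 CPM in the mutant and were called lower on both other additions. The size of the loss differed from that on oleic acid at 2 of them and from that on linolenic acid at 0, beside 17.9% and 1.16% of all genes tested. The run POX00004 to POX00008 summed to 614, 1149 and 1462 CPM in Ku70 and to 229, 243 and 255 CPM in the mutant, and none of its members (0 of 5) was called lower on linolenic or oleic acid. The difference between additions itself was called for 1 of these 5 loci against oleic acid and 0 against linolenic acid.

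**Figure D4:**
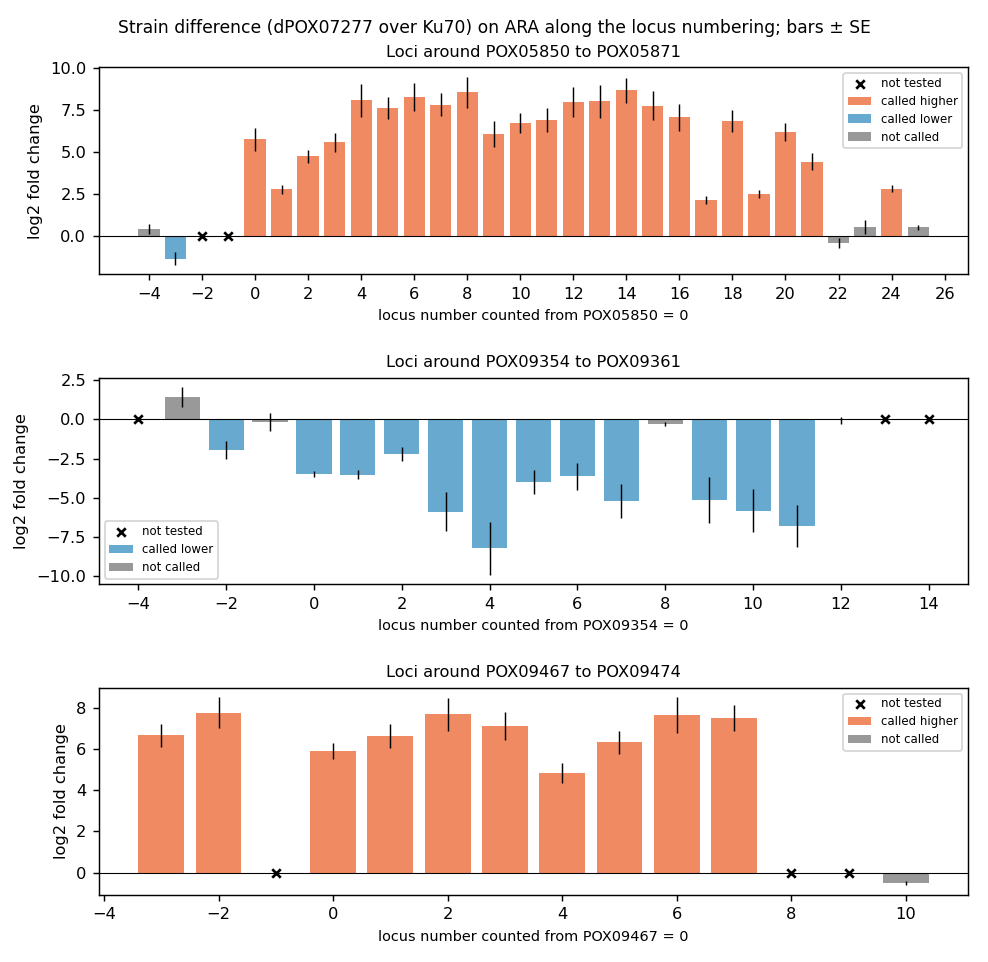
Log2 fold change of dPOX07277 over Ku70 on ARA, with SE, for each locus in 3 windows of the numbering, plotted by locus number counted from the first locus of the run, with crosses for loci not tested. The 22 loci from POX05850 on rise together, and 12 tested loci around POX09354 fall.

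Gains and losses on ARA were shared in part with the other fatty acids. Of the 692 genes called higher on ARA, 518 were also called higher on linolenic acid, which is 74.9% of the ARA genes and 65.4% of the 792 called higher on linolenic acid (9.34% of all genes tested). Of the 531 called lower, 269 were also called lower there, 50.7% of the ARA genes and 58.5% of the 460 there (5.42%; 14.8% in either direction). Oleic acid shared 528 of the higher genes, 76.3% of those on ARA and 27.8% of its own 1901 (22.4% of all genes tested), and 312 of the lower genes, 58.8% and 35.1% of 889 (10.5%; 32.9% in either direction). All 3 additions shared 441 higher genes and 203 lower genes. Each addition had Ku70 libraries of its own. Across the 8484 genes, which are not independent replicates and share strains and counting, log2 fold changes on ARA correlated with those on linolenic acid at r = 0.842 and with those on oleic acid at r = 0.705.

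**Figure D5:**
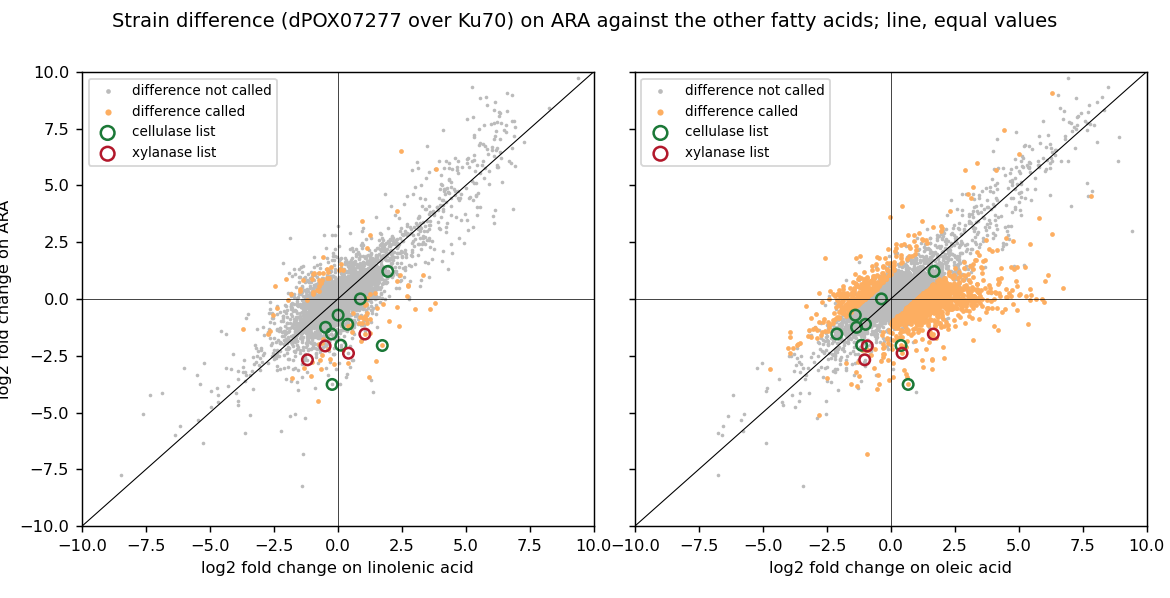
Log2 fold change of dPOX07277 over Ku70 on ARA (y axis) against that on linolenic acid (left) and oleic acid (right), 1 point per tested gene except POX07277, with genes whose difference between additions was called in orange and members of the cellulase and xylanase lists ringed. Points gather along the line of equal values, and the xylanase loci lie below that line in both panels.

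The strain difference on ARA itself differed from that on linolenic acid at 98 genes (1.16%), 43 more positive (0.507%) and 55 more negative (0.648%) on ARA, by the interaction contrast of the edgeR fit. This count was unstable: it was 280 with DESeq2, 345 in the 12 libraries of the 2 additions and 258 without the oleic acid library F. It was 193 without Ku70 ARA library 38, 165 without Ku70 linolenic acid library 43, and 30 to 49 without each of 9 other libraries. Only dPOX07277 linolenic acid library T could be left out with a change under 1.5 times. Against oleic acid 1522 genes differed (17.9%), 413 more positive (4.87%) and 1109 more negative (13.1%) on ARA. That count was 306 in the 12 libraries of those additions, 137 more positive and 169 more negative, and 1138 with library totals for scaling, 428 and 710. It was 2914 without dPOX07277 oleic acid library S, 774 without F and 942 without T. It was 598 to 985 without Ku70 ARA library 39 or 40, dPOX07277 ARA library F or S, or any Ku70 oleic acid library.

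Of the lists, the xylanase locus POX08990 differed between additions under each setting tried. It fell on ARA (-1.54) and rose on linolenic acid (1.06) and oleic acid (1.67), and the differences of -2.60 (SE 0.40, edgeR with Benjamini-Hochberg adjusted p = 0.00768) and -3.21 (SE 0.40, adjusted p = 0.00159) held under all alternatives. Its Ku70 level was 26.03 to 42.5 CPM on ARA, 4.79 to 5.98 CPM on linolenic acid and 4.17 to 6.22 CPM on oleic acid. Its mutant level was 11.8 to 13.4 CPM on ARA, 9.17 to 14.9 CPM on linolenic acid and 9.66 to 16.98 CPM on oleic acid. The mutant ranges of the 3 additions overlapped, whereas Ku70 on ARA lay above Ku70 on the other additions.

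The cellulase locus POX02740 fell on ARA (-2.05) and rose on linolenic acid (1.74), a difference of -3.78 (SE 0.66, edgeR with Benjamini-Hochberg adjusted p = 0.0117) whose call was lost without mutant ARA library S (adjusted p = 0.0512). Ku70 had 139 to 209 CPM of it on ARA and 31.1, 15.1 and 76.3 CPM on linolenic acid. For POX07535 the difference from oleic acid was -4.44 (adjusted p = 0.00677), and its Ku70 mean was 88.8 CPM on ARA against 6.48 CPM on linolenic acid and 6.88 CPM on oleic acid. On linolenic acid 2 of the 9 cellulase loci were called higher and 0 lower, and 1 of 4 xylanase loci was called higher. Ku70 library 43 stood apart there, with a summed cellulase level of 40880 CPM against 12549 and 8182 CPM in libraries 41 and 42. Over all genes 9.34% were higher and 5.42% lower there. On oleic acid 1 cellulase locus was called higher and 4 lower, and 1 xylanase locus higher, beside 22.4% higher and 10.5% lower over all genes. The difference from linolenic acid was called for 1 cellulase and 1 xylanase locus, beside 1.16% of all genes. That from oleic acid was called for 2 of each, beside 17.9%, and 2 of 9 cellulase loci is near that share.

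Of the 692 loci called higher on ARA, 11 also differed from both other additions in that direction, and of the 531 called lower 17 did. Over all genes tested, the difference was called for 1.16% against linolenic acid and 17.9% against oleic acid. The joint count was made only in the fit of 18 libraries, and both of the counts it draws on were unstable. POX06395 rose on ARA from 13.3, 9.58 and 13.0 CPM to 115, 121 and 152 CPM (log2 fold change 3.45, SE 0.35), against 0.95 on linolenic acid and 1.24 on oleic acid. Its difference from linolenic acid lost its call in 2 of 21 alternatives and that from oleic acid in 0 of 20. POX06599 fell on ARA from 136, 967 and 992 CPM to 54.1, 54.6 and 83.8 CPM (-3.43, SE 0.77), and its differences were -4.64 and -4.08. The difference from linolenic acid was not called with the replicate block by letter (-4.55, edgeR with Benjamini-Hochberg adjusted p = 0.0639) or in 10 of the fits that left out 1 library, and that from oleic acid was not called in 1 of 20 alternatives. Library 38 was again the low Ku70 library of POX06599, and its Ku70 mean was 37.96 CPM on linolenic acid and 68.9 CPM on oleic acid. POX01219 fell on ARA from 19.96, 85.0 and 75.3 CPM to 8.59, 12.7 and 5.42 CPM (-2.75, SE 0.57), and its differences lost their call in 5 of 21 alternatives against linolenic acid and in 14 of 20 against oleic acid. POX03959, nearly silent in Ku70 on ARA at 0.414, 0 and 0 CPM, had 13.7, 15.8 and 10.7 CPM in the mutant and its difference from linolenic acid was called (4.06), a call lost in 10 of 21 alternatives.

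Opposite calls were rare. Against linolenic acid 1 gene was higher on ARA and lower there, POX01761, and 4 were lower on ARA and higher there, among them POX02740, POX08990 and POX05011. Against oleic acid the counts were 3 and 22, and of the latter POX04599, POX08245, POX01165 and POX05964 had the largest changes on ARA, with log2 fold changes of -3.08 to -2.58. On oleic acid the mutant was above Ku70 in libraries F and T for all 4, but library S had 2.95 CPM of POX04599 against 5.52 to 8.34 CPM in Ku70, and it was also below Ku70 for POX01165 and POX05964. The ARA call of POX05964 was lost without Ku70 library 39 or 40 or any mutant library, with edgeR Benjamini-Hochberg adjusted p between 0.1 and 0.132, and with limma on log2(FPKM + 1), where the change was -0.76 (adjusted p = 0.234). POX01761 had 165, 64.7 and 63.3 CPM in Ku70 and 251, 280 and 233 CPM in the mutant on ARA, a call that was lost without any one of 5 ARA libraries, Ku70 library 38 being the exception.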

How the data were processed

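RNA-seq of mycelium gave 1 table per library. Per the file headers the authors computed an expected count and an FPKM per gene, and 4 tables also held TPM as deposited by the authors, which was not used. RSEM 1.2.12, Bowtie2 2.1.0, DESeq2 and BWA 0.7.10-r789 are named in the submitters' processing notes. The sources used here give neither their roles nor the genome build or strand handling. Hence loci with close copies or overlapping neighbours are uncertain. Lengths are coding lengths (99.969% multiples of 3).

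The deposited expected counts were rounded, which moved at most 0.00016% of a library, and 18 libraries (13277742 to 14627510 counts; 2 strains, 3 additions) were fitted with edgeR 4.0.16 (R 4.3.3): quasi-likelihood test, TMM, 6 group means, genes averaging 1 CPM or more, two-sided, Benjamini-Hochberg adjusted p under 0.05 and absolute log2 fold change of at least 1. Alternatives used DESeq2 1.42.0 and limma 3.58.1 on log2(FPKM + 1), pseudocount 1. On simulated data over 8469 genes, 97.87% and 100% of genes changed by log2 -3 and 3 were recovered, 86% and 90% at -1.5 and 1.5, and 0.024% of unchanged genes were called. The simulation held no other difference between groups and no library that stood apart from its group. It therefore checks the steps and does not measure error rates in the real comparison. Values are CPM of the library total, SE is of the log2 fold change, and correlations between libraries used log2(CPM + 1). No 2 libraries of a group agreed within counting noise (chi-square per degree of freedom at least 16.5).

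Same-letter dPOX07277 libraries on ARA and linolenic acid deviated together (r = 0.14, 0.25 and 0.38), and those on ARA and oleic acid did not all do so (-0.05, 0.51 and 0.26). Pairs of unlike letters ranged from -0.42 to 0.18 with linolenic acid and from -0.45 to 0.41 with oleic acid. Some of them thus exceeded same-letter pairs. Named loci are POX07277 with 2 neighbours a side, all list members, the 10 largest log2 fold changes a direction (mean of at least 10 CPM in the higher strain, no overlap), the 5 largest gains and losses in CPM, the 4 largest differences between additions a direction, the 3 longest runs (3 of 4 at the tie by number; the other tied run was added after its values were seen, like the shorter runs), opposite calls and loci at 0 in 1 strain. The members and lists were chosen with earlier results of these data known. Lists by product were not used, since no ID matched. Summed list levels are given without the permutation test that had been planned, as the lists were chosen with results known.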

Additional observations from a re-analysis of the deposited data

Results flagged for a closer look

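The values below are loci named above whose strain difference on ARA differed from that with another fatty acid, by the interaction contrast of edgeR with Benjamini-Hochberg adjustment over 8484 genes. Each value is the log2 fold change on ARA minus that with the other acid. Of 12 such loci against linolenic acid, 3 were called under all alternatives (POX05089, POX08990 and POX09354), and of 30 against oleic acid 13 were. These 13 were POX01165, POX03927, POX04599, POX05089, POX06395, POX06608, POX07535, POX08032, POX08245, POX08451, POX08452, POX08489 and POX08990. All other differences below lost their call under some alternative. No cause was tested. The oleic acid values rest on a dPOX07277 group whose libraries correlated at 0.838 to 0.964.

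Among the lists, the difference was -3.78 from linolenic acid and -2.45 from oleic acid for the cellulase locus POX02740, and -4.44 from oleic acid for POX07535. It was -2.60 and -3.21 for the xylanase locus POX08990 and -2.83 from oleic acid for POX06783. The call of POX06783 was lost in 7 of 20 alternatives. For the regulator locus POX01960 it was 1.2 from oleic acid, where the strain difference was -0.55.

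Loci more positive on ARA against both acids were POX05832 (3.03 from linolenic, 2.40 from oleic acid), POX05492 (2.90 and 1.91) and POX06395 (2.50 and 2.21). POX05832 and POX05492 were not called on ARA and fell on both other acids, with mutant libraries of POX05832 on ARA at 54.3, 30.6 and 117 CPM. With the replicate block by letter the difference of POX05832 from linolenic acid was 2.94 and not called (edgeR with Benjamini-Hochberg adjusted p = 0.0581). Over all alternatives, POX05832 lost its call in 10 of 21 against linolenic acid and in 6 of 20 against oleic acid. For POX05492 this was 9 of 21 and 10 of 20. POX03959 differed by 4.06 from linolenic acid. Against oleic acid POX06513 differed by 2.78, POX08452 by 4.38, POX06608 by 3.63, POX08451 by 3.17, POX08489 by 3.09 and POX05869 by 1.06. Of these, POX06513 lost its call in 10 of 20 alternatives and POX05869 in 9 of 20. In Ku70 on ARA, POX08452 had 95.0 CPM in library 38 against 9.44 and 13.0 CPM in libraries 39 and 40.

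Loci more negative on ARA against both acids were POX06599 (-4.64 and -4.08), POX01219 (-4.23 and -2.36), POX05089 (-4.04 and -2.79), POX08877 (-3.97 and -2.51), POX05011 (-2.73 and -1.86) and POX09354 (-1.67 and -1.0). The oleic acid difference of POX09354 lost its call in 13 of 20 alternatives. Those of POX05011 were lost in 9 of 21 against linolenic acid and in 8 of 20 against oleic acid. Those of POX08877 were lost in 9 of 21 and in 12 of 20. POX05089 and POX08877 were not called on ARA and rose on both other acids. Against oleic acid the differences were -5.90 for POX09365, -2.28 for POX03927, -2.01 for POX00089, -4.69 for POX04599, -4.27 for POX08245, -4.24 for POX01165 and -4.67 for POX05964. The call of POX00089 was lost in 13 of 20 alternatives and that of POX09365 in 5 of 20. The largest were -6.47 for POX08032, -6.23 for POX08049 and -6.12 for POX00018, none of which was called on ARA (0 of 3).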

How the results depend on the processing

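Of 2475 values recomputed under other settings, 2219 kept their direction and side of the threshold, or a count within 1.5 times, and 0 reversed. On ARA, scaling, filter, test, the 6 libraries alone and leaving out a library each kept both counts within 1.5 times (652 to 741 higher and 452 to 496 lower when 1 of the 6 libraries was left out), and 558 higher and 370 lower genes were called in every such fit. With no minimum fold, 1360 were higher and 1145 lower, and 1 regulator locus passed. Leaving out 1 library gave 4 to 6 called cellulase loci, 3 to 4 xylanase loci and 0 to 1 amylase loci. Of the 87 named loci called on ARA, 78 were called under all alternatives. The difference from linolenic acid was called at 98 genes, at 280 with DESeq2, 345 in 12 libraries, 258 without oleic acid library F (chosen after seeing the data) and 30 to 193 with 1 library left out. The difference from oleic acid was called at 1522 genes, at 943 with limma on log2(FPKM + 1) (567 more positive, 376 more negative), 306 in 12 libraries and 598 to 2914 with 1 library left out. The causes were not tested. With a replicate block by letter, the counts were 100 and 1617 (529 more positive, 1088 more negative). No paired analysis was possible for the ARA comparison itself because Ku70 libraries carry numbers and dPOX07277 libraries letters. The cellulase list's summed level in the mutant was 0.507 of that in Ku70 by CPM and 0.494 by FPKM. A gene below 1 CPM on average was not tested, and 3 libraries a strain limit the precision of loci that vary in Ku70.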
